A study of Mus musculus with 6 samples.

Results

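The nuclear genes for the mitochondrial respiratory chain and ATP synthase were followed in RNA labelled as from BMOL cells, a mouse liver progenitor cell line. Members were all entries of the count files whose symbol begins with Nduf (complex I), is Sdha, Sdhb, Sdhc or Sdhd (complex II), or begins with Uqcr (complex III), Cox4 to Cox8 (complex IV) or Atp5 (complex V, the ATP synthase). This gave 92 of 23282 entries, with 45 in complex I, 4 in complex II, 8 in complex III, 18 in complex IV and 17 in complex V. The prefixes also take in genes that are not structural subunits: the complex I assembly factors Ndufaf1 to Ndufaf7, Atp5s and Atp5sl, and the supercomplex factor Cox7a2l. All 13 messenger RNAs of the mitochondrial genome that were looked for had no entry, so the chain was seen through its nuclear genes alone.

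The study compared 3 libraries labelled as BMOL cells given a vector control with 3 libraries labelled as BMOL cells given TXNIP-expressing constructs. TXNIP, thioredoxin-interacting protein, is an alpha-arrestin that binds thioredoxin and limits glucose uptake. No other treatment is named for either group, and the labels do not say which construct or clone was used or whether each library comes from its own culture. All p-values therefore rest on the spread between these libraries, which may be technical.

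The respiratory chain passes electrons from NADH through complex I, or from succinate through complex II, to coenzyme Q, on to complex III, cytochrome c, complex IV and oxygen. Complexes I, III and IV pump protons as they do so, and complex V lets the protons flow back to make ATP. Most subunits are encoded in the nucleus, and several subunits of complexes IV and V have isoforms from separate genes that differ between tissues. Hepatocytes depend on this chain for most of their ATP, while macrophages can shift between it and glycolysis with activation.

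Library totals lay between 8725624 and 15119775 counts. Levels are CPM, read counts relative to library size after scaling with TMM factors. Because reads come from the 3' end of each transcript, CPM are not divided by gene length and are compared here mainly between libraries. Sums and isoform shares also set genes beside each other. Their size within a library depends on how well each gene was counted, which was not tested. Txnip itself had 38.3, 9.63 and 10.8 CPM in the controls, against 217, 299 and 290 CPM in the libraries labelled TXNIP overexpressed. The libraries also differed in cell type markers. All 13 leukocyte and macrophage markers of a fixed list rose, and their summed level went from 72.6 to 92.3 CPM in the controls to 7102 to 7873 CPM; Itgam and Adgre1 had no read in any control. All 8 tested of 12 ductular and progenitor markers fell, with a summed level of 2562 to 3681 CPM in the controls and 0.0907 to 1.55 CPM in the other group, where Sox9, Krt7 and Epcam had no read and Krt19 had 2. Of 10 hepatocyte markers, 5 were tested and 4 fell, with summed levels of 39.7 to 100.3 and 0.0967 to 3.27 CPM. The defining markers of the labelled progenitor type were thus at or near 0 in the libraries labelled TXNIP overexpressed, and the labels are used here as names only. These marker differences run alongside every result below, and their part in the results was not tested. In such bulk RNA, fewer cells of a type and less RNA per cell cannot be told apart.

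Of the 92 members, 87 had enough reads to test, and 5 complex IV isoforms did not. Among the 87, 45 fell, 9 rose and 33 did not pass (edgeR's quasi-likelihood test, Benjamini-Hochberg adjusted p under 0.05 over all 12088 genes tested). Over all genes tested, 64.5% changed, 33.9% lower and 30.6% higher. The share of members that changed, 62.1%, was thus close to that of all genes, while their split between directions was not: 51.7% of the tested members fell and 10.3% rose. The median log2 fold change was -0.36 over the members and -0.04 over all genes tested. All 3 libraries labelled TXNIP overexpressed lay below all 3 controls for 50 members and above them for 12, and the groups overlapped for 25. Over all genes tested the groups were separated for 70.4%, in these directions for 36.8% and 33.6%. Control replicate 1 was the highest control for 47 of the 87, and replicate 1 labelled TXNIP overexpressed the lowest of its group for 50.

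The changes were moderate for these libraries. Log2 fold changes of members ran from -1.73 to 2.95, with an interquartile range of 0.71 against 1.61 over all genes tested. A fall of more than 2-fold was called for 14 members, where 22.5% of all genes tested had one. A rise of more than 2-fold was called for 2 members, where 18.1% of all genes tested had one. Abundance bears on this background: when only genes whose mean reached 5 CPM in each group were counted, 45 members fell and 8 rose, against 28.6% and 30.5% of 8425 genes.

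**Figure D1:**
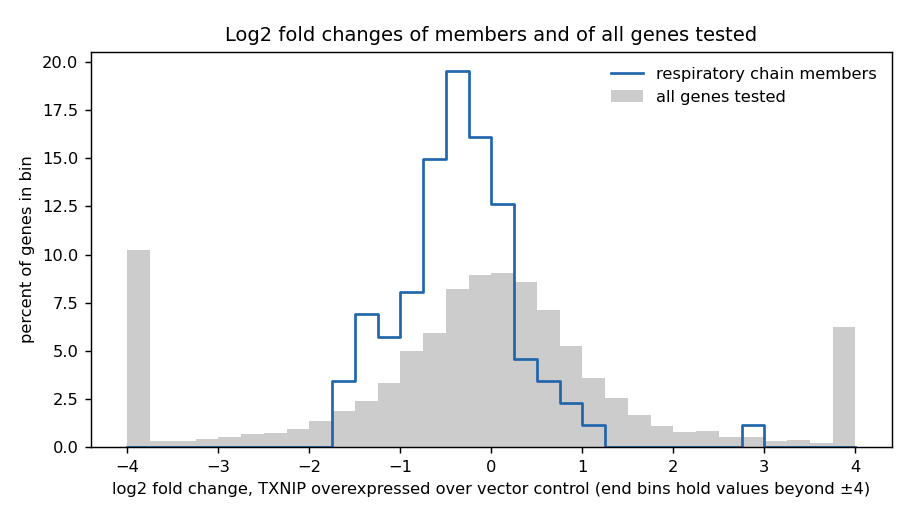
Share of genes (percent, vertical) in bins of log2 fold change (horizontal), with all 12088 genes tested as grey bars and the 87 tested members as a blue line. The members sit around a median of -0.36 and stay between -1.73 and 2.95, a narrower range than that of all genes.

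Summed over their members, all 5 complexes were lower in every library labelled TXNIP overexpressed than in every control. The 92 members together made up 21907, 19545 and 19632 CPM in the controls, against 14056, 15636 and 15617 CPM in the other group, 74.2% of the control mean. Control replicate 1 was the highest of all and replicate 1 labelled TXNIP overexpressed the lowest. Complex I went from 6498 ± 304 to 4606 ± 158 CPM (SD, n = 3 each), 70.9% of control. Complex IV fell to a like share, from 4812 ± 298 to 3353 ± 396 CPM or 69.7%. Complex V held 77.4% of its control level, 5898 ± 486 against 4563 ± 331 CPM. The smaller complexes kept more, with complex III at 2291 ± 263 and 1858 ± 33.5 CPM (81.1%) and complex II at 862 ± 22.1 and 722 ± 11.1 CPM (83.8%). Such sums weigh abundant members most and were not tested. By member, the median log2 fold change was -0.41 in complex I, -0.18 in complex II, -0.51 in complex III, -0.36 in complex IV and -0.34 in complex V. In the same order, 51.1%, 25%, 62.5%, 53.8% and 52.9% of tested members fell, against 33.9% of all genes tested. The shares that rose were 11.1%, 0%, 12.5%, 15.4% and 5.88%, against 30.6%.

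**Figure D2:**
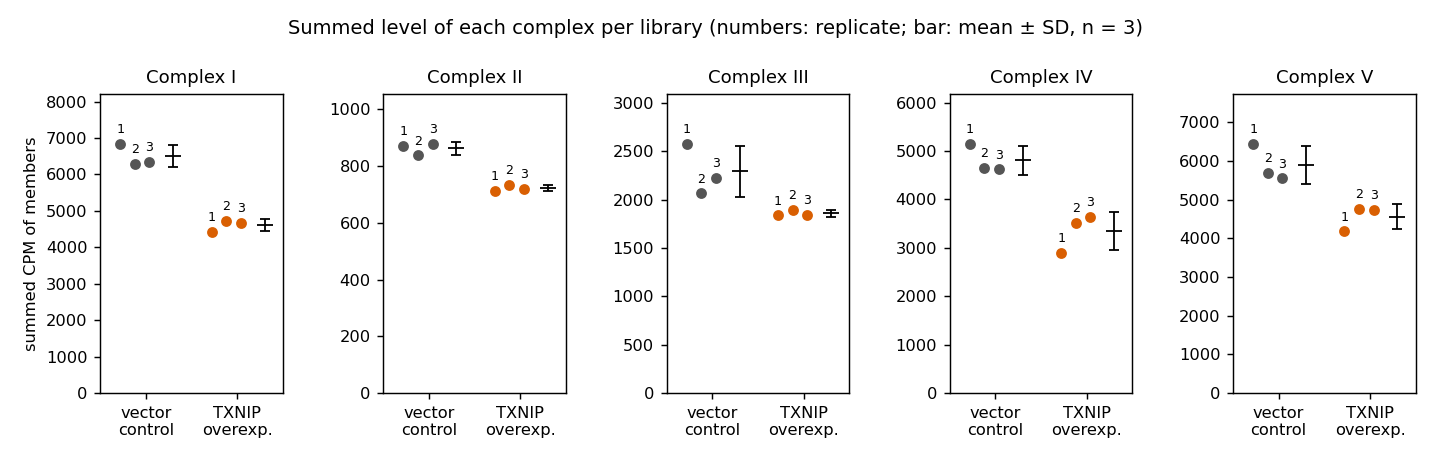
Summed CPM of the members of each complex (vertical, linear from 0) in each library, numbered by replicate, with the mean and SD of 3 libraries beside the points. Every complex is lower in the libraries labelled TXNIP overexpressed, at 69.7% of the control mean in complex IV and 83.8% in complex II.

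The members did not move as a block. In complex I, the NADH dehydrogenase, 23 of 45 members fell, 5 rose and 17 did not pass. Ndufv1, whose product binds the FMN that takes up electrons from NADH, had 283, 222 and 243 CPM in the controls, against 105, 82.7 and 79.5 CPM in the libraries labelled TXNIP overexpressed. The highest of the latter was less than the lowest control by more than the range of either group. This is a log2 fold change of -1.49 ± 0.15 (SE; adjusted p = 2.5e-06). Ndufs8, which carries iron-sulfur clusters close to the coenzyme Q site, went the other way. It had 139, 147 and 134 CPM in the controls, against 222, 280 and 261 CPM in the other group, a log2 fold change of 0.86 ± 0.13 (adjusted p = 7.6e-05). Both genes lie on chromosome 19, Ndufs8 from 3908863 to 3912774 and Ndufv1 from 4007499 to 4012755 (GRCm38.p6), so opposite changes came from neighbouring stretches of the same chromosome.

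Ndufv1 and Ndufs8 belong to the core subunits of complex I, those that carry its electron path. Ndufv2, an iron-sulfur partner of Ndufv1 in the NADH-binding tip, missed the threshold at 205 ± 2.27 and 191 ± 6.78 CPM (log2 fold change -0.10 ± 0.11), although the groups did not overlap. Ndufs1, the large iron-sulfur subunit, stood at 71.0 ± 8.26 and 86.2 ± 19.3 CPM, and Ndufs7, which holds the last iron-sulfur cluster before coenzyme Q, at 52.8 ± 6.47 and 66.2 ± 5.33 CPM. Neither passed (adjusted p = 0.17 and 0.066), but Ndufs1 did so without replicate 2 labelled TXNIP overexpressed (0.0494) and Ndufs7 without replicate 1 of that group (0.0363). Ndufs3 had 51.8 ± 7.85 and 40.9 ± 1.5 CPM (adjusted p = 0.073), and passed only with library size alone as the scaling (0.0381). The summed core held 88.6% of its control level, against 69.9% for complex I without its assembly factors. The latter sum includes the core itself, and Ndufa4 and Ndufa4l2 as well.

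The largest falls of complex I were in accessory subunits, which surround the core and are needed for assembly and stability. Ndufa12, at chromosome 10 from 94199035 to 94221440, encodes a late-joining subunit of the arm that reaches into the matrix. It had 196, 175 and 162 CPM in the controls, against 58.7, 50.3 and 52.0 CPM in the other group. The groups were far apart, 3.32-fold (log2 fold change -1.73 ± 0.13, adjusted p = 2.6e-07). Ndufc1, a small membrane subunit, had 244, 211 and 217 CPM and then 76.5, 71.9 and 66.4 CPM (log2 fold change -1.65 ± 0.13). Ndufa7, another subunit of the matrix arm, had 310, 259 and 259 CPM and then 87.9, 101 and 99 CPM (-1.52 ± 0.13). Falls of more than 2-fold were also called for Ndufb10, Ndufa13, Ndufa6, Ndufb5, Ndufb9, Ndufa3 and Ndufb7, with log2 fold changes from -1.34 to -1.02. Ndufa2, whose product sits in the same NADH-oxidising module as Ndufv1, missed the threshold at 418 ± 4.61 and 366 ± 17.7 CPM (adjusted p = 0.14).

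By position in the complex, the NADH-oxidising N module had 6 of 10 members lower and none higher, with a median log2 fold change of -0.63. The Q module, which hands electrons to coenzyme Q, had 3 lower and 1 higher of 6 and a median of -0.40. In the membrane arm, 5 of 9 proximal members fell with none higher (median -0.41), and 7 of 11 distal members fell with 2 higher (median -0.56). In this order, 60%, 50%, 55.6% and 63.6% fell, against 51.7% of all tested members and 33.9% of all genes tested. The shares that rose were 0%, 16.7%, 0% and 18.2%, against 10.3% and 30.6%. The summed N module was at 63.0% of control and the summed Q module at 93.3%. Within each module the spread of the members' log2 fold changes was wider than the distance between the modules' medians. The interquartile range was 1.27 in the N module and 0.76 in the Q module.

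**Figure D3:**
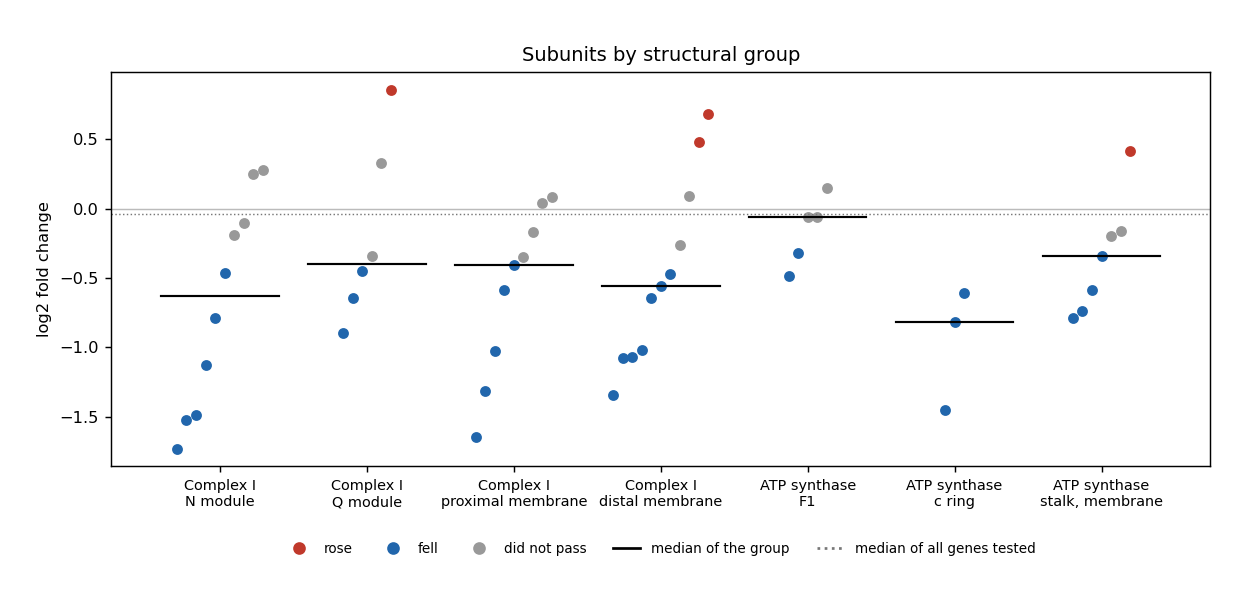
Log2 fold change (vertical) of each tested subunit, coloured by call, in structural groups of complex I and the ATP synthase, with the median of each group as a black bar and that of all genes tested as a dotted line. The N module spans -1.73 to 0.28, the F1 head of the ATP synthase spans -0.48 to 0.15 with a median of -0.06, and all 3 genes of the c ring lie below -0.60.

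The other members of complex I that rose were Ndufb3, Ndufab1, Ndufa4l2 and Ndufaf3. Ndufb3, a distal membrane subunit, had 228, 233 and 260 CPM in the controls, against 293, 374 and 338 CPM in the other group (log2 fold change 0.48 ± 0.13, adjusted p = 0.0056). Ndufab1 is the mitochondrial acyl carrier protein, which serves fatty acid synthesis as well as complex I. It rose from 30.1 ± 2.98 to 48.4 ± 3.27 CPM (adjusted p = 0.0020). Ndufaf3, a factor that helps assemble the Q module, rose from 10.7 ± 1.13 to 23.3 ± 1.39 CPM, a log2 fold change of 1.12 ± 0.20. It was 1 of 7 Ndufaf genes measured. Of the others, Ndufaf7 fell (26.7 ± 0.523 to 17.3 ± 3.48 CPM, adjusted p = 0.014) and 5 did not pass. The call of Ndufaf7 was lost without replicate 3 labelled TXNIP overexpressed (adjusted p = 0.0634).

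Ndufa4 and Ndufa4l2 form a pair. Ndufa4 is named for complex I but its product is found in complex IV, and Ndufa4l2 is a paralog that hypoxia induces in many cells. Ndufa4 fell from 146 ± 1.62 to 84.2 ± 15.8 CPM (log2 fold change -0.79 ± 0.15, adjusted p = 4.8e-04). Ndufa4l2 had 7.26, 11.6 and 13.3 CPM in the controls, against 25.7, 14.7 and 15.5 CPM in the other group, where replicate 1 stood high. Its call (log2 fold change 0.78 ± 0.29, adjusted p = 0.033) was lost without that library (0.49, adjusted p = 0.164), without control replicate 1 (0.0953) or control replicate 2 (0.0570) and with limma-voom (0.0603). The share of Ndufa4l2 in the pair's summed CPM went from 6.82% ± 1.85 to 18.6% ± 7.75 (SD, n = 3 each). The exact two-sided permutation test gave p = 0.1, the smallest that 3 against 3 allows. Without replicate 1 labelled TXNIP overexpressed the difference shrank from 11.7 to 7.28 percentage points.

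Complex II, succinate dehydrogenase, differed least in its members. Sdhb, the iron-sulfur subunit, had 416, 339 and 375 CPM in the controls, against 315, 249 and 239 CPM in the libraries labelled TXNIP overexpressed, with replicate 1 the highest within each group. The groups did not overlap, and it fell by 0.49 on the log2 scale (SE 0.14, adjusted p = 0.0076), a call lost without replicate 3 labelled TXNIP overexpressed (0.0523). Sdha, the flavoprotein that oxidises succinate, had 166, 172 and 175 CPM and then 168, 183 and 160 CPM, overlapping throughout (log2 fold change -0.01 ± 0.12). The membrane anchors Sdhc (183 ± 20.5 and 143 ± 31.3 CPM) and Sdhd (131 ± 7.41 and 142 ± 17.3 CPM) did not pass. Sdhc passed with library size alone (adjusted p = 0.0433) and without control replicate 1 (0.0430).

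In complex III, which takes electrons from coenzyme Q to cytochrome c, 5 of 8 members fell, 1 rose and 2 did not pass. The small subunits around the core accounted for 4 of the falls. Uqcr10, at chromosome 11 from 4701968 to 4704344, had 465, 316 and 327 CPM in the controls, against 134, 135 and 144 CPM in the other group. It was 2.68-fold lower (log2 fold change -1.42 ± 0.16, adjusted p = 5.5e-06), and the controls spread more widely than the other libraries because of replicate 1. Uqcrq, which lies near a coenzyme Q site, fell from 609 ± 63.2 to 386 ± 26.1 CPM, Uqcrb from 175 ± 7.16 to 115 ± 6.42 CPM and Uqcr11 from 121 ± 9.39 to 79.8 ± 16.3 CPM. Uqcrfs1, the Rieske iron-sulfur protein, fell from 189 ± 19.6 to 141 ± 16.6 CPM (adjusted p = 0.016), a call lost without control replicate 3 (0.0727).

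The core proteins of complex III went apart. Uqcrc2 rose, with 229, 219 and 241 CPM in the controls, against 421, 362 and 353 CPM in the other group, where even the lowest library exceeded every control (log2 fold change 0.72 ± 0.12, adjusted p = 2.0e-04). Its partner Uqcrc1 had 122, 151 and 167 CPM and then 149, 138 and 141 CPM, within the range of the controls (-0.04 ± 0.14). Uqcrh, the hinge protein that helps cytochrome c dock, stood at 451 ± 123 and 478 ± 30.0 CPM. Control replicate 1 (592 CPM) lay far above controls 2 and 3 (365 and 397 CPM), and without it Uqcrh passed as higher (log2 fold change 0.32, adjusted p = 0.0275). Cyc1, cytochrome c1, belongs to complex III but not to the prefix. It fell from 221 ± 9.31 to 114 ± 19.3 CPM.

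In complex IV, cytochrome c oxidase, 13 of 18 entries could be tested: 7 fell and 2 rose, and 4 missed the threshold. Cox8a, the broadly expressed form of a small membrane subunit, had 1061, 933 and 915 CPM in the controls, against 219, 435 and 456 CPM in the libraries labelled TXNIP overexpressed. Replicate 1 of the latter was less than either of the other two, and all 3 were far from the controls (log2 fold change -1.39 ± 0.23, adjusted p = 3.2e-04). Cox4i1, a regulatory subunit that contacts the catalytic core, had 725, 614 and 563 CPM and then 260, 353 and 373 CPM (-0.95 ± 0.16). Cox6a1 had 719, 724 and 715 CPM, nearly identical in the controls, and then 345, 416 and 404 CPM (-0.89 ± 0.12, adjusted p = 3.1e-05). Smaller falls, with log2 fold changes from -0.39 to -0.33, were called for Cox6c, Cox5a, Cox5b and Cox7a2. Those of Cox6c (358 ± 40.4 to 273 ± 33.6 CPM) and Cox7a2 (503 ± 65.9 to 399 ± 26.6 CPM) lay near the threshold (adjusted p = 0.022 and 0.038). The call of Cox6c was lost without control replicate 1 (adjusted p = 0.0602) or replicate 2 labelled TXNIP overexpressed (0.121), and that of Cox7a2 without any library but control replicate 2 (0.0580 to 0.104, with log2 fold changes from -0.37 to -0.24 against -0.33 with all 6) or with upper-quartile scaling (0.0546). Without replicate 2 labelled TXNIP overexpressed Cox5b was lost as well (0.0612), and 4 members of complex IV fell. Cox6b1 (386 ± 22.5 and 368 ± 85.3 CPM) and Cox7b (223 ± 20.1 and 207 ± 12.2 CPM) did not pass. Nor did Cox7c, which passed as higher without replicate 1 labelled TXNIP overexpressed (adjusted p = 0.0219).

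Cox7a2l encodes a factor that joins complexes III and IV into supercomplexes rather than a standard subunit. It had 202, 170 and 188 CPM in the controls, against 263, 295 and 305 CPM in the other group, without overlap, a rise of 0.63 ± 0.12 on the log2 scale (adjusted p = 6.9e-04). Cox7a1, the muscle form of Cox7a2, was detected in every library with 163 reads over the controls and 93 over the other group, or 4.63 ± 2.58 and 3.06 ± 0.774 CPM (adjusted p = 0.31).

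Of the tissue-restricted isoforms of complex IV, only Cox6a2 passed. Cox6a2 is the heart and muscle partner of Cox6a1. It had 4, 12 and 9 reads in the controls, or 0.440, 0.832 and 0.588 CPM, and 24, 72 and 55 reads in the other group, or 2.85, 6.96 and 4.99 CPM. The log2 fold change was 2.95 ± 0.55 (adjusted p = 4.9e-04). Its share in the pair with Cox6a1 was 0.0860% ± 0.0270 and 1.23% ± 0.414, so Cox6a1 held nearly all of the pair in either group (exact permutation p = 0.1). Cox4i2, the hypoxia-linked form of Cox4i1, had no read in the controls and 8 reads over the libraries labelled TXNIP overexpressed, 4 each in replicates 2 and 3. Cox7b2 and Cox8c, known from testis, had 8 and 1 reads, all in control replicate 2. Cox6b2 (testis) and Cox8b (heart and muscle) had no read in any library, which allows up to 0.0773 CPM over the controls and 0.101 CPM over the other group, a limit for counting error only.

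**Figure D4:**
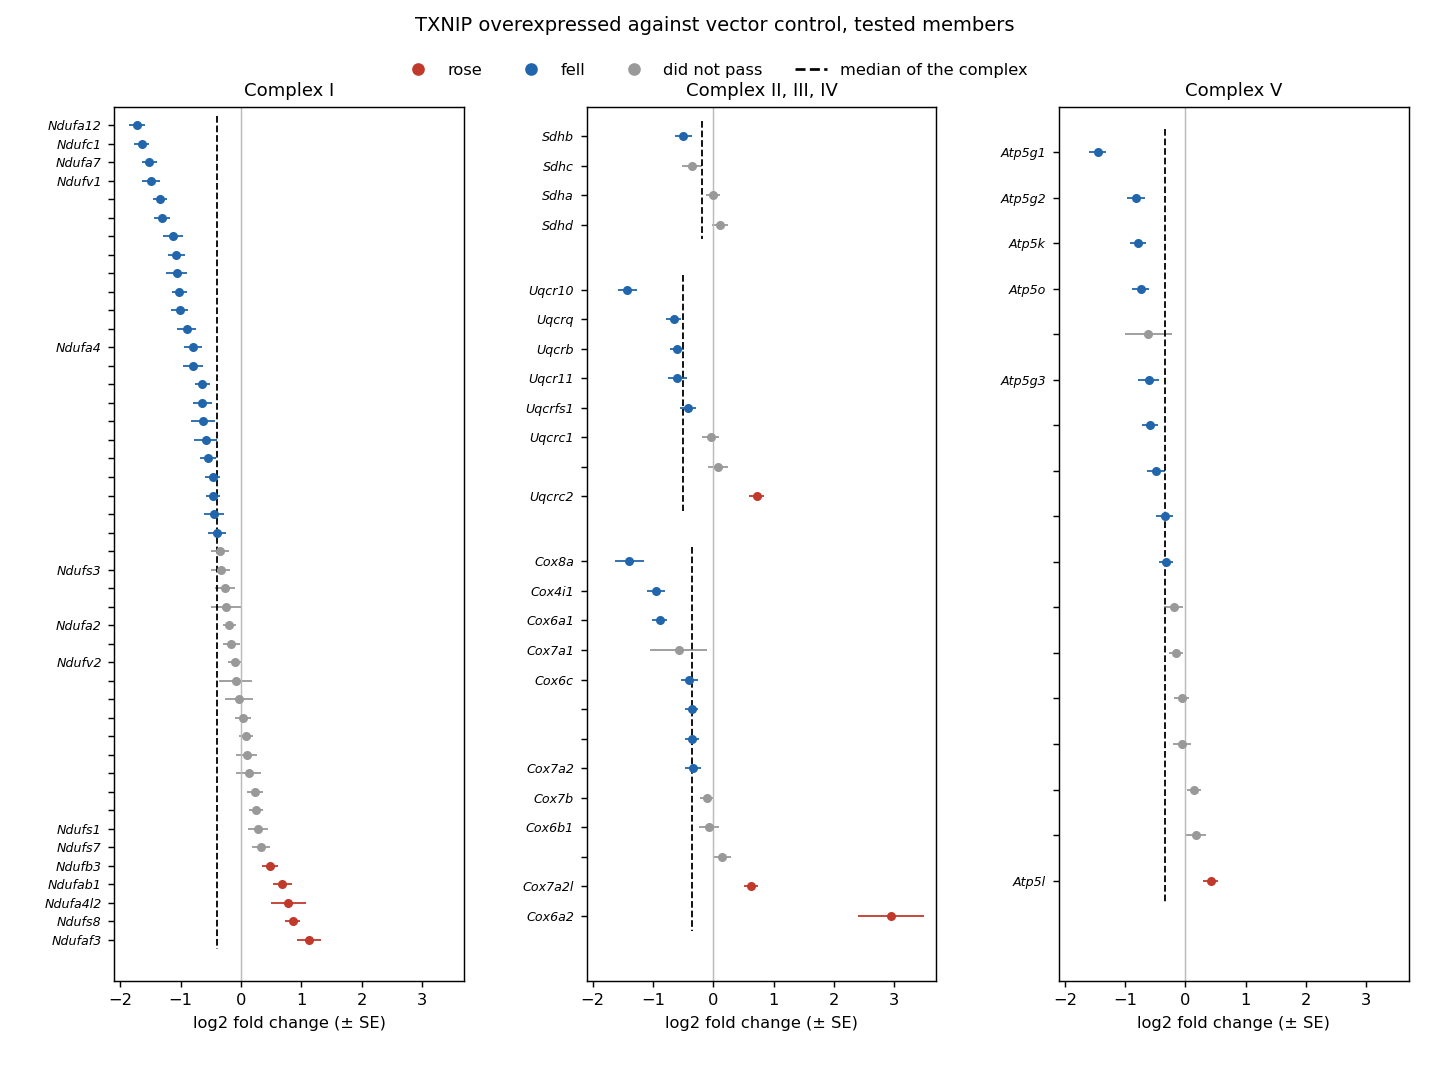
Log2 fold change and its standard error (horizontal) of each of the 87 tested members, in panels by complex and coloured by call, with symbols for the members the text describes by rule and the median of each complex as a dashed line. Falls outnumber rises in every complex, and Cox6a2 stands apart at 2.95 ± 0.55.

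Complex V, the ATP synthase, had 9 of 17 members lower, 1 higher and 7 not past the threshold. In its F1 head, where ATP is made, 2 of 5 members fell and 3 did not pass. The share that fell, 40%, stood against 33.9% of all genes tested. Atp5a1, the alpha subunit, stood at 552 ± 31.3 and 612 ± 49.7 CPM, and Atp5b, the catalytic beta subunit, at 685 ± 36.7 and 656 ± 79.6 CPM, and neither passed (adjusted p = 0.28 and 0.68). Of the central stalk, Atp5c1 fell from 162 ± 25.8 to 116 ± 12.9 CPM and Atp5d from 267 ± 10.2 to 213 ± 14.4 CPM, while Atp5e did not pass. Both falls were lost in leave-one-out fits, that of Atp5c1 without replicate 3 labelled TXNIP overexpressed (adjusted p = 0.0639) and that of Atp5d without control replicate 2 (0.105) or 3 (0.0661) or replicate 2 (0.0502) or 3 (0.0741) of the other group. The summed F1 head, most of it Atp5a1 and Atp5b, was at 95.9% of control, and the groups overlapped.

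The c ring, which the proton flow turns, is built from 1 protein that 3 genes encode, and all 3 fell. Of all genes tested, 33.9% fell. Atp5g1, at chromosome 11 from 96072793 to 96075694, had 167, 201 and 191 CPM in the controls, against 57.6, 72.1 and 74.2 CPM in the other group. It was 2.74-fold lower (log2 fold change -1.45 ± 0.14, adjusted p = 2.1e-06). Atp5g2 had 230, 254 and 231 CPM and then 105, 151 and 149 CPM (-0.82 ± 0.15, adjusted p = 4.1e-04). Atp5g3 had 1898, 1480 and 1459 CPM and then 792, 1239 and 1145 CPM (-0.61 ± 0.17, adjusted p = 0.0085). In all 3 genes replicate 1 labelled TXNIP overexpressed was the lowest library. The summed ring genes were at 61.9% of control.

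The share of Atp5g1 in the summed CPM of the c ring genes was 7.27%, 10.4% and 10.2% in the controls and 6.04%, 4.94% and 5.42% in the other group. That of Atp5g3 was 82.7%, 76.5% and 77.5% against 82.9%, 84.7% and 83.7%. Every library labelled TXNIP overexpressed was beyond every control in both shares, though for Atp5g3 control replicate 1 and replicate 1 labelled TXNIP overexpressed nearly coincided. Exact two-sided permutation tests gave p = 0.1 for both, the smallest that 3 against 3 allows, and p = 0.4 for Atp5g2.

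**Figure D5:**
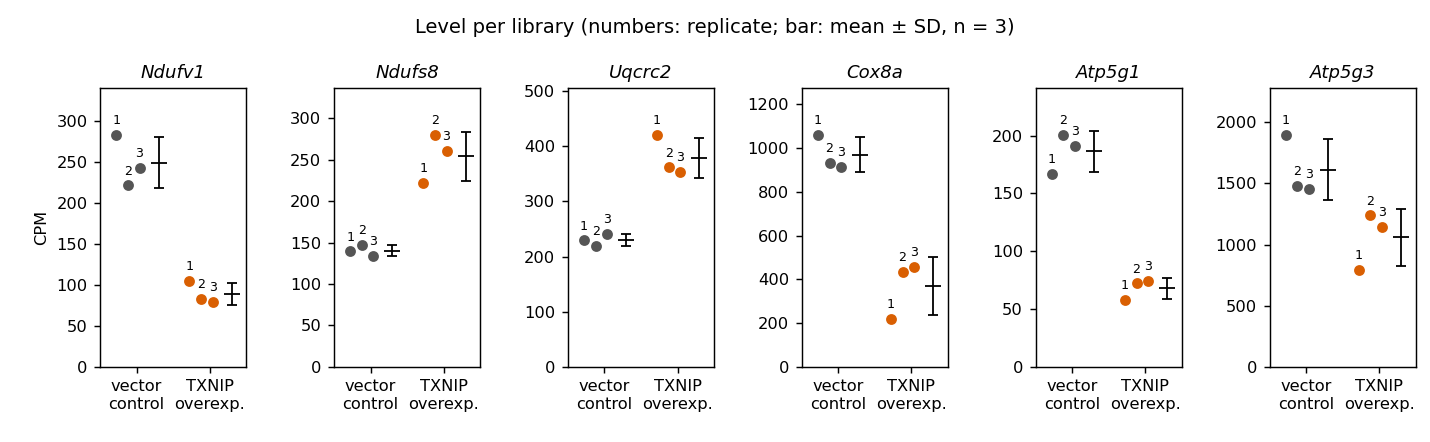
CPM (vertical, linear from 0) of 6 members in each library, numbered by replicate, with the mean and SD of 3 libraries beside the points. Ndufv1, Cox8a, Atp5g1 and Atp5g3 are lower and Ndufs8 and Uqcrc2 higher in all 3 libraries labelled TXNIP overexpressed than in any control, and replicate 1 is the lowest of its group for Cox8a and Atp5g3.

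In the stalk and membrane part of the ATP synthase, 4 of 7 members fell and 1 rose. As shares, 57.1% fell and 14.3% rose, against 33.9% and 30.6% of all genes tested. Atp5o, the protein that ties the outer stalk to the F1 head, fell from 457 ± 81.0 to 274 ± 18.5 CPM (adjusted p = 5.5e-04). Atp5k and Atp5l encode small membrane subunits, e and g, that sit together where ATP synthases pair up, and they moved in opposite directions. Atp5k fell from 133 ± 4.84 to 77.2 ± 10.2 CPM (log2 fold change -0.79 ± 0.13). Atp5l had 110, 91.1 and 98.2 CPM in the controls, against 125, 142 and 133 CPM in the other group (0.42 ± 0.13, adjusted p = 0.013). The call of Atp5l was lost without control replicate 2 (0.0702) or control replicate 3 (0.0522), which left complex V with no member higher. Atp5j2 fell from 512 ± 61.8 to 341 ± 41.9 CPM, and Atp5h from 249 ± 20.3 to 197 ± 32.4 CPM with an adjusted p of 0.048 that was lost in 5 of the 6 leave-one-out fits and with upper-quartile scaling (0.0621).

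Of the 9 members that rose, 4 share the last 500 bases of their gene with an exon of another protein-coding gene, in each case on the opposite strand (GENCODE M21). The same holds for 3 of the 45 that fell, 1 of them with the partner on its own strand. It also holds for 2 of the 33 that did not pass. The share over all genes was not counted. The use of strand in counting is not stated, so reads from such pairs may not be told apart. Ndufa4l2 meets Shmt2, a mitochondrial serine enzyme that itself rose from 158 ± 36.7 to 351 CPM on average. Cox6a2 meets Itgad, a leukocyte integrin gene with 2 reads over the controls and 3, 5 and 3 reads in the other group. Uqcrc2 meets Pdzd9 (36.9 and 35.1 CPM on average) and Ndufaf3 meets Impdh2 (36.6 and 44.4 CPM), neither of which passed. The part of these partners in the rises was not tested.

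The promoters of respiratory genes are known for sites of NRF1, of ETS factors such as GABP and of YY1. Their letters were searched in RefSeq promoters (GRCm38.p6, 250 bases before to 50 after the start), of which 82 belong to 76 members. The NRF1 letters GCATGCGC, read on either strand, were in 14.6% of member promoters and 2.71% of all 32851 promoters. The YY1 letters AAGATGGCG were in 11% against 1.4%, and the ETS letters CCGGAAGT in 6.10% against 3.89%. Among the promoters of members that fell, 18.6% held the NRF1 letters, and among those of members that did not pass, 10% did, and 1 of 6 promoters of members that rose held them. The YY1 letters were in 9.3% of the promoters of members that fell and 16.7% of those that did not pass, the ETS letters in 6.98% and 6.67%, and any of the 3 in 32.6% and 33.3%. These shares are over promoters, not genes. Overlapping promoters of Atp5sl, which did not pass, hold the same YY1 match, and it was counted for each of them. A match is a description of letters and no shown site. The 120 bases before the start are printed for 5 members that fell and for Ndufaf4, which did not pass, to show the shared letters at varied distances. They are read 5′ to 3′ on the gene's strand, with the NRF1 letters of either strand in capitals; where both strands match, the runs overlap into a palindrome. The windows are chr15:82354292-82354411 (minus strand) for Ndufa6, chr17:56717642-56717761 (plus) for Ndufa11, chr4:140961151-140961270 (plus) for Sdhb, chr15:102671048-102671167 (minus) for Atp5g2, chr5:108434400-108434519 (minus) for Atp5k and chr4:24897963-24898082 (plus) for Ndufaf4.
Ndufa6: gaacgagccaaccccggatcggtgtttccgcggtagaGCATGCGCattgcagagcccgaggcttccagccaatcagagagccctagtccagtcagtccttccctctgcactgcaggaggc
Ndufa11: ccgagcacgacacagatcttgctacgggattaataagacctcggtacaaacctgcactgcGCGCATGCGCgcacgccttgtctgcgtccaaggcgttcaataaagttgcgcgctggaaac
Sdhb: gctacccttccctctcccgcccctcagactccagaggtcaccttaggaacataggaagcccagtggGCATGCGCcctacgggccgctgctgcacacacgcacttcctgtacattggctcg
Atp5g2: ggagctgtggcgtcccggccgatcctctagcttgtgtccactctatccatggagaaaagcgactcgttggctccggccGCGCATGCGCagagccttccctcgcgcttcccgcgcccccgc
Atp5k: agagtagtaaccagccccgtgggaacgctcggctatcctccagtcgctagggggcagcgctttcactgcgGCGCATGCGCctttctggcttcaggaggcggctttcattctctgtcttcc
Ndufaf4: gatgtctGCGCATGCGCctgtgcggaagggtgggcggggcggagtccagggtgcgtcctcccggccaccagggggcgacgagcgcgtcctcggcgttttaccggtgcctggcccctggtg

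The letters begin 83 bases before the start in Ndufa6 and 54 in Sdhb, and the palindrome begins 60 bases before it in Ndufa11, 42 in Atp5g2, 50 in Atp5k and 113 in Ndufaf4. All of these members but Ndufaf4 were called as lower, by varied amounts. Ndufa6 had 411, 288 and 268 CPM in the controls, against 131, 162 and 149 CPM in the other group, a log2 fold change of -1.13 ± 0.17. Ndufa11 had 173, 129 and 134 CPM and then 128, 76.9 and 86.2 CPM. Its highest library labelled TXNIP overexpressed (128 CPM) nearly met the lowest control (129 CPM), and its call (adjusted p = 0.019) was lost without control replicate 1 (0.0662) or replicate 2 (0.0919) or 3 (0.0863) of the other group. Ndufaf4 had 59.3, 68.5 and 72.2 CPM and then 82.4, 76.0 and 76.5 CPM, all above the controls but not past the threshold (0.23 ± 0.13, adjusted p = 0.15).

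The calls among regulators of respiratory genes went in both directions. Of 16 tested in a list of 20, 4 rose, 3 fell and 9 did not pass. Thus 43.8% changed (25% higher, 18.8% lower), a lower share than the 64.5% (30.6% and 33.9%) of all genes tested. Ppargc1a, the coactivator PGC-1alpha that drives mitochondrial biogenesis, had 74.2, 58.6 and 66.8 CPM in the controls. The other libraries held none of its reads, which makes it at least 661-fold lower (floor of 3 reads over the group). Ppargc1b, the related coactivator PGC-1beta, rose from 1.94 ± 0.285 to 28.2 ± 3.88 CPM, a log2 fold change of 3.84 ± 0.25 (adjusted p = 5.5e-08). The factor NRF1 (Nrf1), whose letters were searched above, fell from 39.0 ± 7.30 to 19.0 ± 0.691 CPM, and the nuclear receptor gene Esrra from 292 ± 7.66 to 192 ± 24.7 CPM. Gabpb2, a subunit of GABP, rose from 58.5 ± 2.39 to 111 ± 7.37 CPM, and Tfam, which packages and transcribes mitochondrial DNA, from 40.3 ± 4.84 to 65.6 ± 11.2 CPM. The median log2 fold change of the list was 0.26, and the same with Ppargc1a at its bound.

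Assembly factors outside the prefixes also went both ways, with 14 of 41 lower, 6 higher and 21 not past the threshold (median log2 fold change -0.16). The share that fell, 34.1%, was close to the 33.9% of all genes tested. The share that rose was 14.6% against 30.6%. Coa6, a copper factor of complex IV, fell from 30.8 ± 2.80 to 9.75 ± 1.09 CPM, Cox14 from 209 ± 29.2 to 84.9 ± 5.41 CPM and the complex III factor Uqcc2 from 156 ± 9.80 to 69.0 ± 8.51 CPM. Rises included Cox16, from 41.7 ± 4.13 to 122 ± 23.4 CPM, the membrane insertase gene Cox18, from 19.4 ± 2.39 to 46.6 ± 5.96 CPM, and Lrpprc, which stabilises mitochondrial messenger RNAs, from 341 ± 25.3 to 671 ± 114 CPM. Cox14, Cox16 and Cox18 help build complex IV.

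Among 17 tested genes for electron carriers and subunits outside the prefixes, 7 fell, 6 rose and 4 did not pass. As shares, 41.2% fell and 35.3% rose, against 33.9% and 30.6% of all genes tested. Cytochrome c itself (Cycs) stood at 209 ± 10.8 and 191 ± 28.4 CPM (adjusted p = 0.41). Usmg5, a small ATP synthase subunit, fell from 210 ± 5.61 to 113 ± 15.0 CPM, and Etfb, of the flavoprotein that brings electrons from fatty acid oxidation, from 139 ± 2.94 to 78.7 ± 3.67 CPM. Atpif1, the inhibitor that stops the ATP synthase from running backwards, rose from 420 ± 39.9 to 574 ± 8.62 CPM (adjusted p = 0.0046). Of the coenzyme Q genes, Coq5 rose from 39.5 ± 0.753 to 94.2 ± 14.7 CPM and Coq3 from 6.02 ± 1.41 to 16.7 ± 0.589 CPM, while Coq10b fell from 30.1 ± 4.98 to 7.76 ± 1.18 CPM.

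The citric acid cycle and pyruvate dehydrogenase genes, which feed the chain, had 5 lower, 6 higher and 7 not past the threshold of 18. These shares, 27.8% lower and 33.3% higher, were near the 33.9% and 30.6% of all genes tested. The median log2 fold change of these genes was 0.15. Their summed level was at 98.1% of control, against 74.2% for the respiratory chain members, and no test of that difference was made. Dld, the shared dehydrogenase subunit of several of these enzymes, rose from 51.1 ± 3.42 to 136 ± 6.78 CPM, Cs, citrate synthase, from 169 ± 7.62 to 336 ± 29.9 CPM and Dlst from 81.8 ± 6.35 to 152 ± 4.32 CPM. Pdha1, a pyruvate dehydrogenase subunit, fell from 105 ± 2.09 to 63.4 ± 10.3 CPM and Mdh2, malate dehydrogenase, from 788 ± 50.2 to 608 ± 25.7 CPM. The call of Mdh2 (adjusted p = 0.012) was lost without replicate 3 labelled TXNIP overexpressed (0.0621).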

How the data were processed

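The authors deposited raw read counts per gene symbol, 1 file per library, from QuantSeq 3' libraries per the labels' protocols. Bowtie2, bedtools and mm10 are named in the submitters' processing notes; no version, setting, annotation or use of strand was given in the sources used here. Reads that match processed pseudogenes, of which respiratory genes have many, may have been placed or lost in ways these counts do not show. Symbols on more than 1 entry (35, none a member) were kept apart.

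Genes were filtered with edgeR's filterByExpr, scaled by TMM and tested with edgeR 4.0.16 (R 4.3.3; robust quasi-likelihood, group as the only term, two-sided, Benjamini-Hochberg over 12088 genes, threshold 0.05), fitted across the whole table. SE is the log2 fold change divided by the root of F. The script was tested on simulated data. CPM and log2 values were computed here from the deposited counts. No molecular identifiers are described, so limits cover counting error only. Genes were named by a rule: per complex the members that rose, the 4 largest falls and the highest level, the core subunits, the isoforms, and the 3 genes of smallest adjusted p per direction of each other list; marker lists are given as sums, with defining markers. A few genes that this rule names are not reported here. Other members and listed genes appear as examples, chosen after their values were seen. The members and lists were chosen with earlier results of these data known. Positions are from RefSeq GRCm38.p6, in which all 92 members were found. Alternatives used limma 3.58.1 and DESeq2 1.42.0.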

Additional observations from a re-analysis of the deposited data

How the results depend on the processing

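No member that was called changed sign under any of the 15 refits that tested it (RLE, upper-quartile and library-size scaling, DESeq2, limma-voom, both filters, the replicate block, Rn45s removed, each library left out). Of the 54 calls, 40 held in every refit that tested the member, 33 falls and 7 rises. Cox6a2, 1 of these rises, was not tested under the filter of 5 CPM in 3 libraries. The number of members that fell was 36 to 43 with 1 library left out and 29 with a minimum fold of 1.5; the number that rose was 7 to 10. Their median log2 fold change was -0.42 to -0.31 with 1 library left out and -0.43 with library size alone. That scaling moved the median of all genes by -0.07, so the distance between members and all genes stayed at -0.32. A minimum fold of 1.5 left 0 falls in complex II, 3 in complex IV, 5 in complex V and 0 rises in complex V. At an adjusted p of 0.01, complex IV had 3 falls and complex V 0 rises. Complex II had 2 falls with library size alone, and 0 to 2 with 1 library left out. Without 1 library, complex III had 1 to 2 rises, complex IV 4 to 7 falls and 2 to 3 rises, complex V 0 to 1 rises and complex I 4 to 6. Complex IV had 1 rise under a filter of 5 CPM in 3 libraries and among genes whose mean reached 5 CPM in each group, a restriction chosen after seeing the data that left 2413 falls over all genes. Without the Ndufaf genes, Atp5s and Atp5sl, and with Ndufa4 and Ndufa4l2 in complex IV, complex I had 3 rises. Complex IV then had 3, with Cox7a2l among them. Of 1306 values of 77 named genes under alternatives, 32 lost and 6 gained a call. No gene called in the main fit or the alternative reversed its sign. Named genes without a call did change sign in some refits, among them Sdha, Uqcrc1 and Cox6b1.

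The labels do not say whether libraries with the same number share more than that number. Their deviations correlated at 0.0842, 0.0339 and 0.0448, and each correlated best with its own number. Whether they are pairs was not tested. The fit with the replicate block called 46 falls and 8 rises among members and 2 falls in complex II, where Sdhc passed (adjusted p = 0.0237). Ndufa4l2 did not (0.0602).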
